A study of Mus musculus with 3 samples.

Results

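Keratins 7, 8, 18, 19 and 20 are the keratins of simple, single-layered epithelium, here followed across the anorectal junction of the mouse, the border of columnar colon and squamous anal epithelium. The members were chosen by gene symbol and are 5 of the 31053 genes in the table, and 5 of its 53 keratin genes. Krt7 and Krt8 encode type II keratins, and Krt18, Krt19 and Krt20 encode type I keratins. A keratin filament is built from paired type II and type I chains, so a cell needs a partner of each type. Krt8 with Krt18 is the usual first pair of simple epithelia, Krt19 is an additional type I chain of ducts and gut, Krt7 is best known from ducts and glands, and Krt20 from mature gut surface cells. Squamous epithelium uses other pairs instead, Krt5 with Krt14 in the basal layer and Krt4 with Krt13 above it in mucosa.

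Distal colon and anus were taken from C57Bl/6 mice, bought at 6 weeks of age, with 5 mice pooled into each of 3 single-cell libraries. The day 0 mice were untreated, and the day 7 and day 42 mice had received 3% dextran sulfate sodium (DSS), which injures the gut lining, in their water for 6 days. All tissue was digested with trypsin and depleted of dying cells by Annexin V before 10x Chromium 3' libraries were made. With 1 library per day there are no replicates, so differences between days carry no test, and the intervals given are exact 95% intervals that cover counting error only. Counts are of unique molecular identifiers (UMIs), each standing for 1 captured RNA molecule. CPM is UMIs of a gene per 1000000 UMIs of the cells summed, and it is not divided by transcript length, since a 3' library counts each molecule at its end.

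The libraries held 11037, 14376 and 11667 cells in day order, in the 29 clusters and 14 annotations of the authors. Squamous cells, the annotation Keratinocytes, numbered 3316, 9035 and 7970, with median depths of 9168, 11481 and 6542 UMIs. Columnar cells, meaning colonocytes, secretory colonocytes and enteroendocrine cells, numbered 4306, 1062 and 1680, with medians of 8916.5, 4017 and 5951.5 UMIs. The 8 squamous markers, among them Krt5, Krt14 and Trp63, had UMIs in all 3 classes, and summed to 11649, 15334 and 22299 CPM in squamous, 862, 2327 and 2144 CPM in columnar and 1029, 1399.6 and 2894 CPM in non-epithelial cells. Of 36941 barcodes, 139 occurred in more than 1 library, and leaving out these cells changed none of the counts of members called higher or lower and none of the counts of squamous clusters carrying a member. Doublets were not removed in the main values, and the 5% of cells with the highest doublet score were left out as an alternative.

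The sequences just upstream of the genes are shown because Krt7, Krt19 and Krt20 were carried by squamous clusters more often than Krt8 and Krt18, as counted further on. Krt7, Krt8 and Krt18 lie on chromosome 15, the last as a close neighbour of Krt8. By GENCODE M21 (GRCm38), Krt7 spans chr15:101411043-101430313 on the plus strand, Krt8 chr15:101996698-102004482 on the minus strand and Krt18 chr15:102028180-102032027 on the plus strand. Krt19 at chr11:100140810-100148665 and Krt20 at chr11:99428403-99438150 both lie on the minus strand. Each run below is the 100 bases before the GENCODE start of the coding transcript, read 5′ to 3′ on the gene's strand from RefSeq promoter sequences of GRCm38.p6, found for 4 of the 5 members and not used here for Krt19. Capitals mark a TATA-type run (TATAAA), a GC box (GGGCGG), an AP-1 type run (TGANTCA) and a short run of the CDX type (TTTAT), on either strand.
Krt7, chr15:101412302-101412401: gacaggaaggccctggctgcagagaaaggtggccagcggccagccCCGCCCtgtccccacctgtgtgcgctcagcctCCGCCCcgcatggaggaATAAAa
Krt8, chr15:102004483-102004582: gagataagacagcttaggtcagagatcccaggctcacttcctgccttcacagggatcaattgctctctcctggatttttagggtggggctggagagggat
Krt18, chr15:102028080-102028179: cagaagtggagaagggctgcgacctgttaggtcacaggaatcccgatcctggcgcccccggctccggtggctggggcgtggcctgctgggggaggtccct
Krt20, chr11:99438151-99438250: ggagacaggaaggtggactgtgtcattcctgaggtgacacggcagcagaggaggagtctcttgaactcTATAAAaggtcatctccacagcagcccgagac
The Krt20 window held TATAAA, the letters of a TATA box, which 5.95% of 27025 RefSeq promoters hold in the 100 bases before the start. The Krt7 window held 2 copies of GGGCGG, read here on the other strand, a run found in 25.2% of those promoters. TTTAT, present in 18.05% of promoters, matched near the end of the Krt7 window and, within TATAAA itself, in Krt20. TGANTCA, present in 2.70% of promoters, matched none of the 4 windows, and the Krt8 and Krt18 windows held none of the letters searched. The promoter counts were made before the RefSeq start, which lies 140 bases (Krt8) and 36 bases (Krt18) downstream of the GENCODE start used here, so those windows are not the ones counted. These matches are descriptions of the letters and not binding sites.

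**Figure D1:**
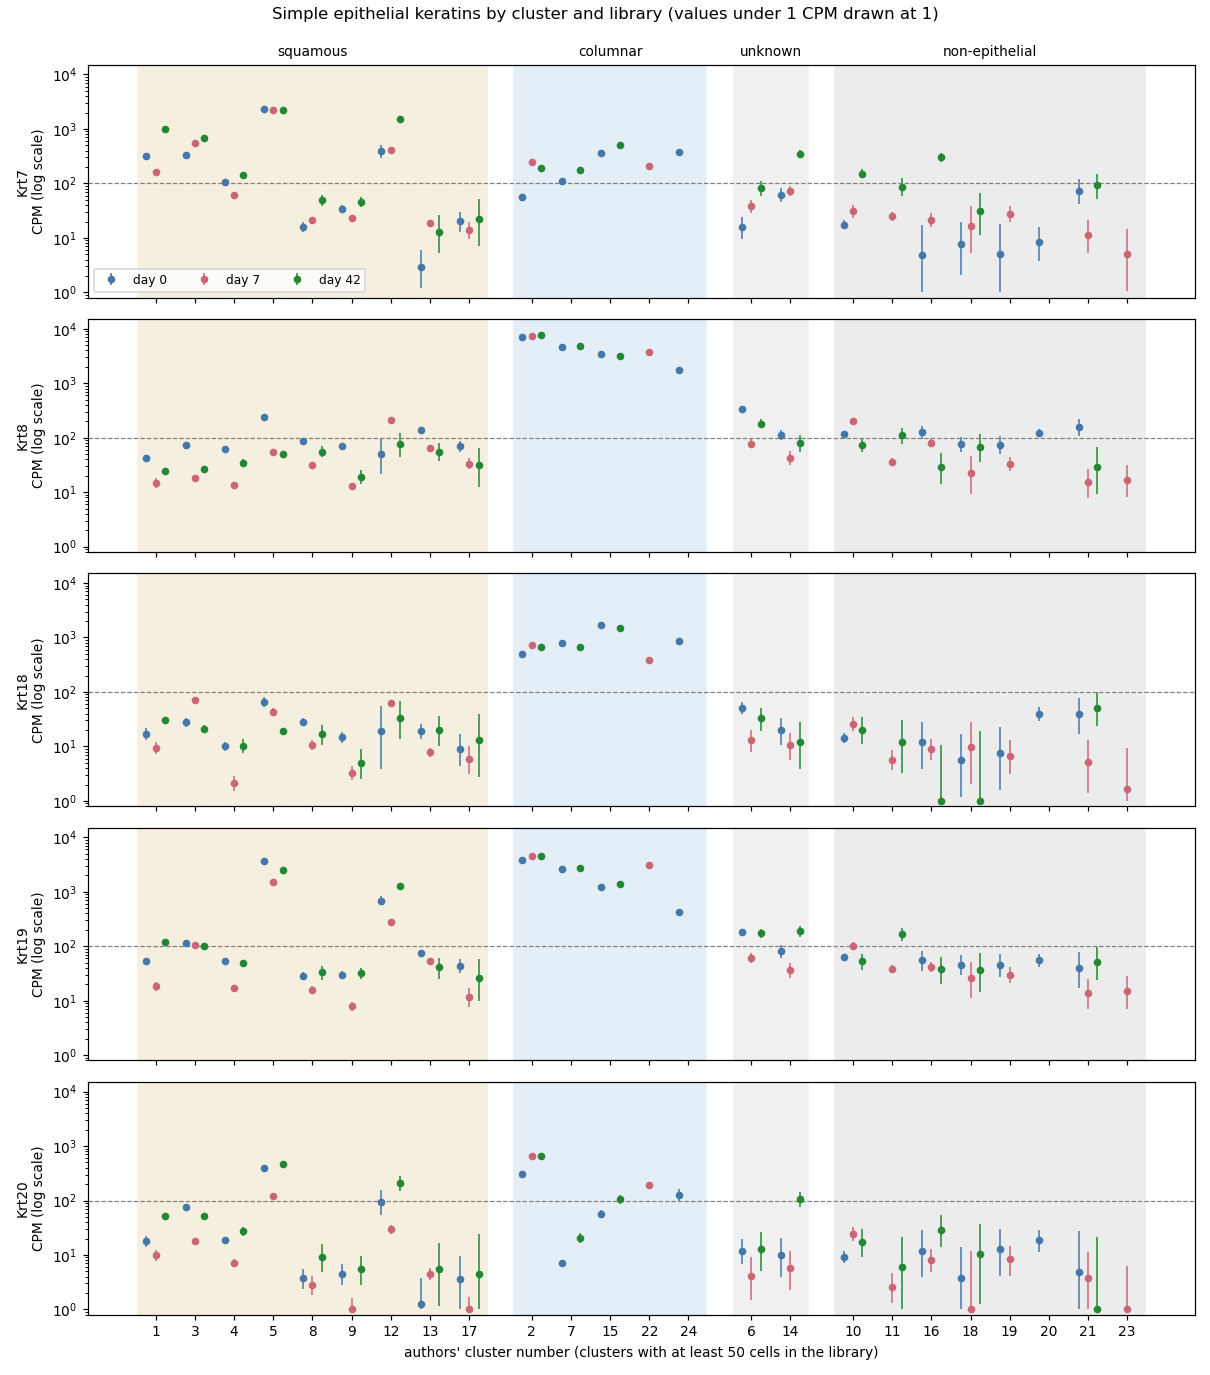
CPM of each keratin (log scale) in every authors' cluster with at least 50 cells, with 1 point per library and bars for the exact 95% counting interval. The dashed line is 100 CPM. Krt8 and Krt18 were high in columnar clusters, whereas Krt7, Krt19 and Krt20 were also high in squamous cluster 5.

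Krt8, the type II chain of the first simple pair, was a columnar transcript in this tissue. Its level in the columnar class was 5282, 6566 and 5937 CPM in day order, against 78.8, 30.2 and 34.8 CPM in the squamous class. Non-epithelial cells showed 115, 65.8 and 66.3 CPM, so the squamous class was below them in all 3 libraries. The part of free RNA in either level was not tested. Among annotations, colonocytes came first at every day, with 5497 CPM at day 0, followed by secretory colonocytes with 3424 and enteroendocrine cells with 1733, and the intervals of these 3 did not overlap. Keratinocytes ranked 10 of 11 annotations at day 0, and their interval overlapped those of T cells and macrophages. Cluster 2, the colonocyte cluster with most cells in each library, was the highest cluster, with 7162, 7302 and 7724 CPM.

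Krt7, the type II chain of ducts and glands, was higher in the squamous than in the columnar class as a whole, though not in every squamous cluster. The squamous class held 208, 339.6 and 1204 CPM at days 0, 7 and 42, and the columnar class 118, 239 and 218 CPM. At day 0 cluster 5 supplied 44.0% of the squamous UMIs, and clusters 8, 9, 13 and 17 lay below 55.8 CPM, the lowest columnar cluster. Without cluster 5 the squamous cells held 288 and 705 CPM at days 7 and 42. At day 0 they held 121 CPM, near the 118 CPM of the columnar class. At that day the highest annotations were enteroendocrine cells with 373 CPM and secretory colonocytes with 361, whose intervals overlapped, then keratinocytes. At days 7 and 42 keratinocytes were highest, and at day 42 secretory colonocytes followed with 498 CPM and endothelial cells with 290.1 CPM. That non-epithelial level was high for the series: the non-epithelial class held 15.8, 25.7 and 136 CPM of Krt7 by day, moving in the same order as the squamous class. Whether free RNA contributed to it was not tested.

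Krt18, the type I partner of Krt8, was also a columnar transcript, but its order among columnar clusters was nearly the reverse of that of Krt8 at day 0. Its columnar level was 791, 694 and 763 CPM and its squamous level 19.7, 37.4 and 22.2 CPM, beside 17.1, 11.4 and 17.1 CPM in non-epithelial cells. Secretory colonocytes led with 1696 CPM at day 0 and 1493 at day 42, ahead of enteroendocrine cells with 874 CPM at day 0 and of cluster 2 colonocytes with 505, 716 and 664 CPM. Krt18 was thus 33.1% of the Krt8 and Krt18 UMIs in secretory cells at day 0 (95% interval 32.4 to 33.8) and 33.5% in enteroendocrine cells (31.1 to 36.0), but 6.58% in cluster 2 (6.43 to 6.74).

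Krt19, the type I chain shared by gut and duct, was high in the columnar class and, among squamous cells, mainly in cluster 5. The columnar class held 2802, 4243 and 3419.8 CPM and the squamous class 201, 108 and 886 CPM, against 59.9, 44.3 and 63.8 CPM in non-epithelial cells. Colonocytes were highest at every day. At day 7 the keratinocyte level overlapped that of fibroblasts, which held 103 CPM, whereas at days 0 and 42 keratinocytes exceeded every non-epithelial annotation. Cluster 5 held 73.3%, 38.1% and 92.1% of the squamous Krt19 UMIs, and the other squamous cells stood at 56.0, 68.5 and 103 CPM.

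Krt20, the chain of mature surface cells, was the least abundant member in columnar cells at day 0. The columnar class held 98.4, 544 and 318 CPM and the squamous class 33.5, 14.5 and 181 CPM, beside 10.2, 7.51 and 14.1 CPM in non-epithelial cells. Within the colon it was split by cluster. Cluster 2 held 302, 669 and 646 CPM, while cluster 7, a colonocyte cluster with 4713 CPM of Krt8 and 806 CPM of Krt18 at day 0, held 6.98 CPM of Krt20 at day 0 and 20.5 at day 42. At day 7 cluster 7 had 33 cells, under the minimum of 50 used for clusters.

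Squamous clusters that carried a columnar keratin were counted as those with at least 50 cells, at least 100 CPM, and a level above every non-epithelial annotation of the same library. Over the 3 libraries there were 27 combinations of squamous cluster and library. Krt7 was carried in 13 of the 27, Krt19 in 8, Krt20 in 4, Krt8 in 2 and Krt18 in none. The non-epithelial level to exceed differed by library, so a cluster could leave the count without a lower level. The Krt7 combinations were clusters 1, 3, 5 and 12 in every library and cluster 4 at day 0. Cluster 4 held 106 CPM of Krt7 at day 0 and 146 CPM at day 42, when endothelial cells held 290 CPM. The Krt19 combinations were clusters 5 and 12 in every library and cluster 3 at days 0 and 7. Cluster 3 held 115, 107 and 102 CPM of Krt19 in day order, and neutrophils held 167 CPM at day 42. Krt20 was carried by cluster 5 in every library and by cluster 12 at day 42. Krt8 was carried only by cluster 5 at day 0 and by cluster 12 at day 7. Clusters 8, 9, 13 and 17 carried no member in any library. The leading keratins of cluster 12 differed by day. In its 51 cells at day 0 they were Krt25 with 46374 CPM and Krt71 with 46367.5 CPM. In its 1668 cells at day 7 they were Krt14 and Krt5, and in its 152 cells at day 42 Krt14 and Krt13.

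Cluster 5 was the squamous cluster with most of these keratins. Its main keratins were those of squamous mucosa: at day 0 Krt13 reached 17458.5 CPM, Krt4 10195, Krt6a 6218 and Krt14 5395, and at days 7 and 42 Krt14 led with 20536 and 19904 CPM. In day order the cluster numbered 87, 162 and 2153 cells, which were 2.62%, 1.79% and 27.0% of squamous cells. Krt7 there was 2322 CPM in the untreated library (2241 to 2405), 2213 CPM on day 7 (2164 to 2263) and 2266 CPM on day 42 (2245 to 2288), and all 3 intervals overlapped. Krt19 was 3744, 1526 and 2551 CPM, and Krt20 was 394, 122 and 469.96 CPM, both lowest at day 7. At day 0 Krt19 in cluster 5 exceeded the 2580 CPM of colonocyte cluster 7. Krt8 in cluster 5 was 244, 54.0 and 50.2 CPM, and Krt18 65.8, 43.0 and 19.1 CPM. Of the colon marker list, 13 of 14 genes had a UMI in cluster 5 in every library, summing to 359.6, 135 and 89.3 CPM, with Cdx2 at 0. Of 8 gland duct and secretory gland markers, 4, 4 and 5 had a UMI there, summing to 4313, 4091 and 6623 CPM, with Muc5b, Bpifb1 and Dcpp1 at 0 in all 3 libraries. This gland list was not particular to cluster 5. It summed to 3237, 2854 and 3130 CPM in the columnar class and to 4611 CPM in cluster 12 at day 42. The part of either list in the keratin levels of cluster 5 as a whole was not tested.

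The shares of cells with a UMI gave the same picture. Krt7 was seen in 98.9%, 95.1% and 94.1% of cluster 5 cells, and with every cell thinned to 1000 UMIs in 77.9%, 66.0% and 70.8%. T cells, which should lack keratins, had thinned Krt7 shares of 0.513%, 3.70% and 6.67%. Krt19 was seen in 68.6%, 42.0% and 49.7% of thinned cluster 5 cells, against 5.13%, 1.85% and 6.67% of T cells. Krt20 was seen in 27.9%, 6.79% and 29.6%, against 0%, 0% and 2.22% of T cells. For Krt8 the thinned shares were 9.30%, 3.70% and 3.53% in cluster 5 and 8.72%, 0.926% and 5.56% in T cells, so at days 0 and 42 its detection was near that of T cells. Other non-epithelial cells differed from T cells. In neutrophils at day 42 the thinned shares were 8.89% for Krt7, 20.0% for Krt19, 13.3% for Krt8 and 0% for Krt20. The median depth of T cells was 2064, 2260 and 1393 UMIs, and that of cluster 5 was 13340, 18530.5 and 7560 UMIs.

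The 5 members made up 11.9%, 6.77% and 10.1% of all keratin UMIs in cluster 5 at days 0, 7 and 42. In cluster 2 colonocytes they made up 92.5%, 88.1% and 84.8%. In the remaining squamous clusters with at least 50 cells the share was at most 6.40%, reached by cluster 12 at day 42. Simple keratins in the squamous mucosa therefore stood beside a much larger amount of squamous keratin, in a set of Krt7, Krt19 and Krt20 with little Krt8 or Krt18.

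Krt8 and Krt18 in cluster 5 came mostly from few cells at days 0 and 7. The 10 cells with most Krt8 held 76.5%, 88.2% and 40.0% of its UMIs by day, and the corresponding values were 83.0%, 81.8% and 25.6% for Krt18 and 45.2%, 30.5% and 4.17% for Krt7. They were 46.1%, 41.8% and 5.39% for Krt19 and 39.3%, 42.5% and 5.07% for Krt20, so at days 0 and 7 these levels also rest on few cells, with 50% of the UMIs in 12 and 14 cells for Krt19 and in 15 and 14 for Krt20. The highest single cell held 95 Krt8 UMIs at day 0. Cells of cluster 5 with no UMI of 14 colon markers numbered 37, 104 and 1553. In them Krt7 was 1989, 1738 and 2178 CPM, Krt19 was 3431, 1225 and 2385 CPM and Krt20 was 447, 89.2 and 457 CPM. Krt8 in the same cells was 89.5, 15.9 and 27.6 CPM. In every library Krt8 differed by a wider factor than the other 3 keratins between these cells and the whole cluster.

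Colon markers were higher in squamous cells with Krt8, Krt18, Krt19 or Krt20 than in cells without, in every library, while for Krt7 the order differed between libraries. The marker list held 14 genes, among them Lgals4, Cdh17 and Car1, and all cells were thinned to 1000 UMIs. Squamous cells with a Krt8 UMI held 562.5, 2080 and 627 CPM of the list in day order, and cells without one held 77.9, 95.4 and 58.3 CPM. Cells with a Krt7 UMI held 141, 203 and 66.8 CPM, and cells without one 99.8, 196 and 83.1 CPM. For Krt19 the pairs were 486 and 82.7 CPM at day 0, 1232 and 118 at day 7, and 137 and 62.5 at day 42. For Krt20 they were 429 and 97.5, then 1087 and 184, and 109 and 72.1 CPM. For Krt18 they were 847 and 90.3, then 644 and 185, and 465 and 67.2 CPM. At day 7 the squamous cells with Krt8 had a median of 2366 UMIs before thinning, against 12591 for those without. The part of colonocyte RNA or of doublets in this was not tested.

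**Figure D2:**
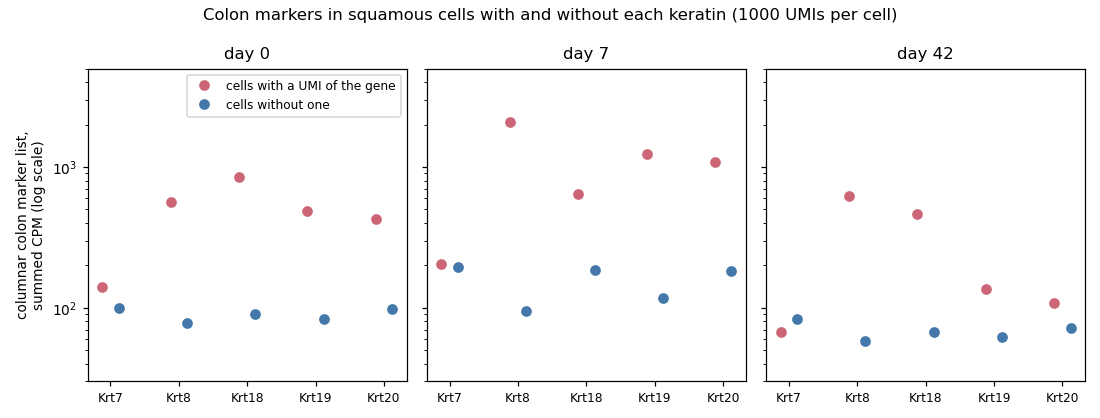
Summed CPM of 14 colon markers (log scale) in squamous cells with a UMI of each keratin and in squamous cells without one, per library, with every cell thinned to 1000 UMIs. At day 7 the gap was widest for Krt8, 2080 against 95.4 CPM, and narrow for Krt7, 203 against 196 CPM. Krt8 did not have the widest gap in every library.

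Krt8 above 100 CPM was also seen in cluster 13 at day 0, with 136 CPM, under the 157 CPM of lymphatic cells, and in cluster 12 at day 7. Cluster 12 had 215 CPM of Krt8, 63.6 of Krt18, 278 of Krt19 and 404 of Krt7 in 1668 cells, with a median of 1672.5 UMIs per cell. This cluster also held 559.5 CPM of the colon markers, with 13 of 14 present, and 6391 CPM of the neutrophil markers, with 4 of 4 present. In its 1073 cells without a colon marker Krt8 was 46.0 CPM, whereas Krt7 was 458 CPM.

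Krt18 above Krt8 was found in cluster 3 at day 7. The leading keratins of cluster 3 were Krt14 and Krt5, and it had 269, 1983 and 974 cells. Krt18 was 28.1 CPM before DSS (23.0 to 33.9), 72.2 CPM on day 7 (70.0 to 74.5) and 21.3 CPM on day 42 (18.5 to 24.4). Krt8 in the same cells was 74.1, 17.9 and 26.3 CPM. Krt18 was therefore 80.1% of the Krt8 and Krt18 UMIs at day 7 (79.0 to 81.2), against 27.5% at day 0 and 44.7% at day 42. In non-epithelial cells the same share was 12.9%, 14.8% and 20.5%, and no columnar cluster with at least 50 cells exceeded 33.5%. Krt18 in cluster 3 at day 7 also exceeded the highest non-epithelial level in that library, 26.2 CPM in fibroblasts, though not the 100 CPM used to count a cluster as carrying it.

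The Krt18 of cluster 3 at day 7 was less concentrated than its Krt8. The 10 highest of 1983 cells held 8.26% of the Krt18 UMIs and 41.2% of the Krt8 UMIs, and 50% of the UMIs were reached with 145 and 20 cells, against 260 for Krt7. Krt18 was seen in 47.8% of 1983 cells at a median depth of 25857 UMIs, and in 5.70% after thinning, where T cells gave 0.926%. At day 0 the thinned share was 2.60% and at day 42 it was 2.46%. Of 35 thinned cells with Krt8, 3 also held Krt18, and colon markers were 44.2 CPM in the 113 cells with Krt18 and 51.3 CPM in the others. By contrast the 35 cells with Krt8 held 914 CPM of colon markers and the cells without it 35.4 CPM. Cluster 3 contributed 84.0% of all Krt18 UMIs in the squamous class at day 7. In cluster 1, with Krt14, Krt5 and Krt6a as its leading keratins at day 42, Krt18 was 55.6% of the 2 genes' UMIs at that day (52.7 to 58.5), at 30.3 CPM of Krt18 and 24.2 CPM of Krt8.

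**Figure D3:**
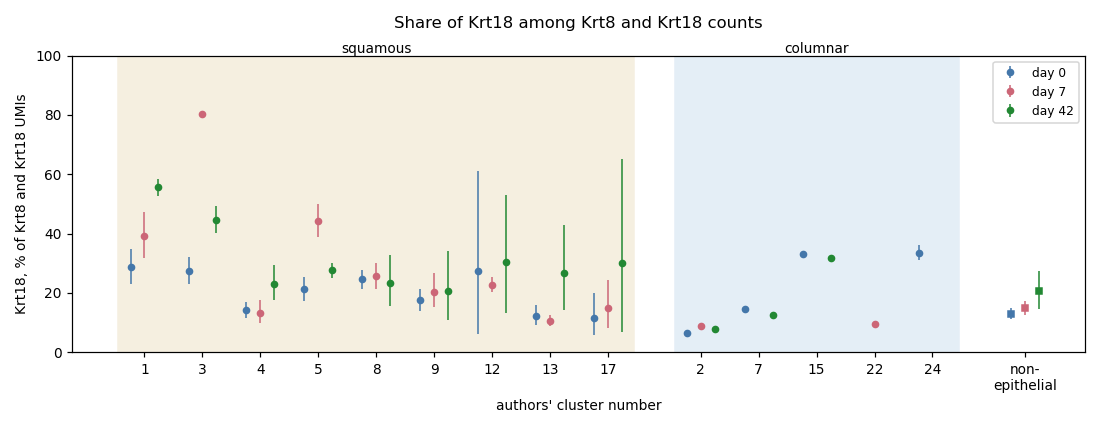
Krt18 as a percentage of the Krt8 and Krt18 UMIs in each squamous and columnar cluster and in all non-epithelial cells, per library, with exact 95% binomial intervals. Cluster 3 at day 7 stands at 80.1%, whereas columnar clusters lie between 6.58% and 33.5%.

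Within single cells, type II and type I members were seen together in different combinations in the 2 epithelia. In thinned cluster 2 colonocytes, Krt19 was found in 72.9%, 77.8% and 80.6% of cells with Krt8, and in 32.4%, 25.0% and 35.8% of cells without it. Krt18 was found in 29.6%, 34.2% and 36.9% of cells with Krt8 and in 8.44%, 3.95% and 10.4% of cells without. In cluster 5, Krt19 was found in 71.6%, 53.3% and 61.4% of cells with Krt7, and in 57.9%, 20.0% and 21.5% of cells without it. Krt20 was found in 28.4%, 8.41% and 34.0% of cluster 5 cells with Krt7 and in 26.3%, 3.64% and 18.9% of those without. Krt18 was found in only 1.49%, 2.80% and 1.38% of cluster 5 cells with Krt7. A thinned cell misses most molecules, so these shares compare groups and do not count the cells that use a pair.

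Cluster 22, a colonocyte cluster of 279 cells seen at day 7, held keratins of both kinds. Krt8 was 3696 CPM and Krt19 3061 CPM, beside 5421 CPM of Krt14 and 2193 CPM of Krt5, and the 5 members were 37.8% of its keratin UMIs. Of 212 thinned cells with Krt5, 195 (92.0%) also held Krt8. The median depth of the cluster was 2528 UMIs. Whether its cells are doublets was not tested.

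The comparison of days asked whether these keratins differed after DSS. A gene was called higher or lower when the log2 ratio of CPM, with 10 CPM added to both values, was at least 1 or at most -1. Genes needed 10 CPM or more in 1 of the 2 libraries to enter. In the squamous class at day 7, none of the 5 members was called higher than at day 0, where 1.38% of all genes were, and 1 was called lower, where 1.17% of all genes were. In the same class at day 42, 3 members were called higher, where 2.79% of all genes were, and none lower, where 2.39% were. All 5 members passed the minimum level, and their median log2 ratio was -0.83 at day 7 and 2.09 at day 42, against -0.01 and -0.03 over all genes tested.

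**Figure D4:**
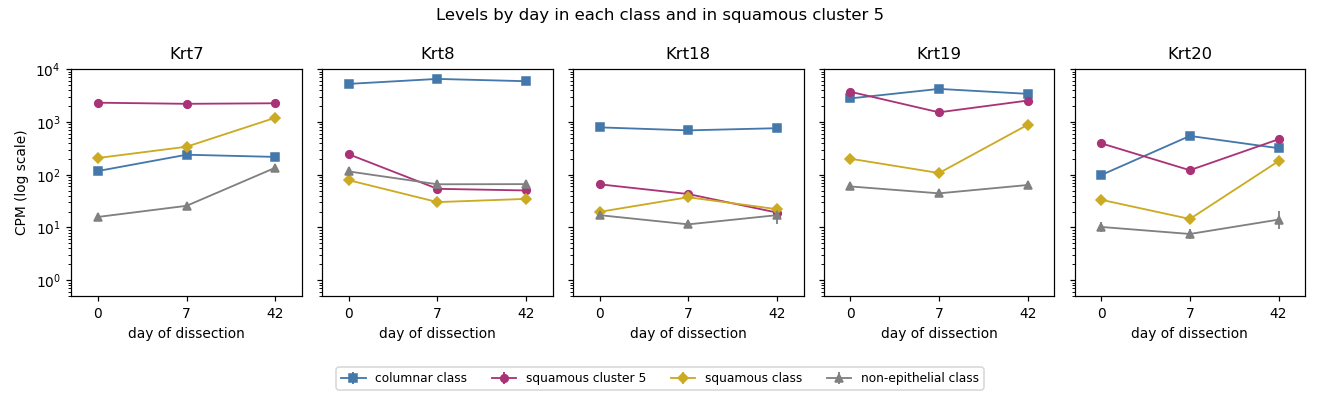
CPM of each keratin (log scale) by day in the columnar class, the squamous class, squamous cluster 5 and the non-epithelial class, with 1 library per day and exact 95% counting intervals. Krt7 in cluster 5 stayed between 2213 and 2322 CPM while the squamous class went from 208 to 1204 CPM.

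Krt8 was the member called lower at day 7, from 78.8 to 30.2 CPM, a log2 ratio of -1.14. The direction of Krt8 turned when every cell counted equally, to 0.40 with the mean of CPM per cell and 0.29 with thinned cells, and was -0.37 with thinned cells and without cluster 12. Both levels were below those of the non-epithelial class, which went from 115 to 65.8 CPM, and columnar cells were 39.0% of all cells at day 0 and 7.39% at day 7. The part of free colonocyte RNA in this was not tested. The other squamous log2 ratios at day 7 were 0.68 for Krt7, 0.67 for Krt18, -0.84 for Krt19 and -0.83 for Krt20, and Krt7 and Krt19 changed sign in 1 setting each, at -0.02 with equal weight to clusters and 0.25 without cluster 5.

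Krt7, Krt19 and Krt20 were the members called higher at day 42. Krt7 was 208 CPM at day 0 and 1204 at day 42, a log2 ratio of 2.48. Krt19 went from 201 to 886 CPM, a log2 ratio of 2.09, and Krt20 from 33.5 to 181 CPM, a log2 ratio of 2.13. Cluster 5 supplied 60.2% of the Krt7, 92.1% of the Krt19 and 83.1% of the Krt20 UMIs of the squamous class at day 42. Its share of squamous cells was 2.62% at day 0 and 27.0% at day 42. Without cluster 5 only Krt7 was called higher, and with equal weight to each cluster none was, with Krt19 at -0.19.

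Inside the 9 squamous clusters with at least 50 cells in every library, Krt19 was lower at day 7 than at day 0 in 9 of 9, with a log2 ratio of at most -1 in 6. In the cells of these clusters without a colon marker UMI it was lower in 7 of 9 and at most -1 in 3. There cluster 3 went from 72.6 to 84.5 CPM of Krt19 and cluster 4 from 13.2 to 15.4 CPM. At day 42 Krt19 was above day 0 in 4 clusters and below it in 5, and in cells without a colon marker it was above in 8 of 9. Krt7 was higher at day 42 than at day 0 in 8 of 9 clusters, by at least 1 in 4. Non-epithelial Krt7 was 15.8 and 136 CPM at these days, and clusters 8, 9, 13 and 17 stood below that at day 42, at 49.2 CPM or less. The part of free RNA in these was not tested. Cluster 1 went from 316 to 160.3 and 979.9 CPM of Krt7 over the 3 days, and cluster 3 from 328 to 562 and 678 CPM. Krt20 was higher at day 42 than at day 7 in 9 of 9 clusters, by at least 1 in 5. In clusters 8, 9, 13 and 17 it was at most 9.14 CPM at either day. The minimum of 10 CPM was not applied to these counts of clusters. Krt8 was lower at day 7 than at day 0 in 8 of 9, the exception being cluster 12, with all cells and with cells without a colon marker alike. Cluster 12 had 8 Krt8 UMIs at day 0. In its cells without a colon marker Krt8 was 31.0 CPM at day 0 (8.45 to 79.4) and 46.0 CPM at day 7 (37.8 to 55.4), with overlapping intervals.

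In the columnar class, 1 member was called higher at day 7 and the same member at day 42, where 4.02% and 1.39% of all genes were called higher. No member was called lower at day 7, where 2.43% of all genes were, or at day 42, where 0.433% were. The member was Krt20, with log2 ratios of 2.35 at day 7 and 1.60 at day 42. Over the settings tried these ratios lay between 1.12 and 2.99 at day 7 and between 1.01 and 2.12 at day 42. The mixture of clusters differed between days, since cluster 7, low in Krt20, had 1809, 33 and 412 of the columnar cells. Within cluster 2 alone the log2 ratios of Krt20 were 1.12 and 1.07. The share of thinned cluster 2 cells with Krt20 was 22.9%, 36.2% and 42.0%.

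The other columnar members were not called. Krt8 differed by log2 ratios of 0.31 and 0.17, Krt18 by -0.19 and -0.05 and Krt19 by 0.60 and 0.29 at days 7 and 42, where the median of all genes was -0.14 and -0.03. The day 7 values of Krt8, Krt18 and Krt19 took both signs over the settings tried, from -0.05 to 0.54, from -0.53 to 0.50 and from -0.22 to 0.82. Krt7 differed by 0.97 and 0.84. In cluster 2 Krt7 was 55.8, 248 and 189 CPM. In the columnar class at day 7, 10 cells held 30.2% of the Krt7 UMIs. Without columnar cells that held a UMI of Krt5, Krt14 or Trp63, the Krt7 log2 ratio at day 7 was 0.03, a value that rests on 93 of 1062 cells at day 7 and 2751 of 4306 at day 0.

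Other keratins and filament genes were compared between days in the same way, from lists of keratins, simple epithelium genes, filament linkers and regulators. The list of 11 keratins held the main squamous ones and Krt23, which was 11.2 CPM in squamous and 11.4 CPM in columnar cells at day 0. Between day 7 and day 0 within squamous cells, 2 were called higher, Krt14 and Krt6a, and 4 lower, Krt4, Krt15, Krt10 and Krt80, where 1.38% and 1.17% of all genes were. At day 42, 3 were called higher, Krt14, Krt13 and Krt6a, and 2 lower, Krt10 and Krt1, where 2.79% and 2.39% of all genes were. Of 14 simple epithelium genes, 12 passed the minimum level at day 7 and none was called. At day 42, 6 of the 13 that passed were called higher, where 2.79% of all genes were, and the list median log2 ratio was 0.94. The 6 were Epcam, an adhesion protein, the tight junction genes Cldn3, Cldn4 and Cldn7, the epithelial transcription factor Elf3 and the mucin Muc1. Without cluster 5 only Cldn7, at 115 CPM on day 42, was called higher among the 12 that passed, and the median log2 ratio was 0.33. None of the 11 filament linkers that passed, such as plectin and the desmosomal plaque genes, was called at either day. Of 6 regulators that passed, Fosl1 alone was called higher at days 7 and 42. In the columnar class 5 of the 10 listed keratins that passed were called higher at day 7 and none lower, where 4.02% and 2.43% of all genes were. At day 42, 4 were called higher and 2 lower, Krt10 and Krt1, where 1.39% and 0.433% of all genes were. Krt14 was 272, 1203 and 1155 CPM in columnar cells and 417, 835 and 1721 CPM in non-epithelial cells, and the part of free RNA in this was not tested.

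Simple epithelium genes were compared between cluster 5 and the other squamous cells. Of the 12, 13 and 13 list genes with at least 10 CPM in either group at days 0, 7 and 42, 8, 9 and 7 had a log2 ratio of at least 1, where 7.35%, 5.12% and 4.06% of all genes did. None was at most -1, where 9.9%, 9.26% and 5.05% of all genes were. The list medians were 1.40, 1.23 and 1.24, against -0.25, -0.26 and -0.17 over all genes. Elf3 was 355, 510.5 and 397 CPM in cluster 5 and 20.4, 40.3 and 47.0 CPM in other squamous cells. Cldn4 was 293, 331 and 317 CPM against 23.8, 31.9 and 55.3 CPM. Foxa1, a transcription factor of duct and gut epithelium, was 99.4, 76.7 and 68.6 CPM against 22.4, 22.8 and 48.9 CPM. The intestinal factor Cdx1 was 2.99, 0.290 and 0.592 CPM in cluster 5 and 174, 134 and 182 CPM in columnar cells. Its relative Cdx2 had no UMI in cluster 5, but was also at 0.410, 1.57 and 11.3 CPM in columnar cells. Trp63, the squamous regulator, was 89.0, 67.1 and 88.5 CPM in cluster 5 and 321, 202 and 249 CPM in other squamous cells. Of the 13 linkers, envoplakin and periplakin, which join keratin to the cell border, were higher by at least 1 in all 3 libraries, and Dst, which anchors keratin at the basal side, was lower by at least 1. The clusters were drawn by the authors from these same cells, so these values describe cluster 5 and test nothing.

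**Figure D5:**
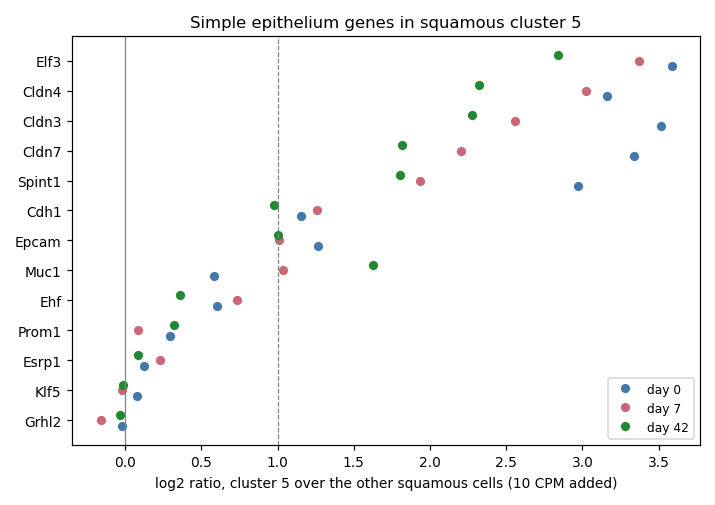
Log2 ratio of CPM (10 CPM added) between squamous cluster 5 and all other squamous cells for 13 of the 14 simple epithelium genes, with 1 point per library. The dashed line is 1, and Elf3, Cldn3, Cldn4, Cldn7 and Spint1 lie beyond it in all 3 libraries.

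Across the 24 clusters with at least 50 cells, with days summed, the members fell into patterns described by Pearson's r of log2(CPM + 10). Krt8 and Krt18 had r = 0.92, Krt19 and Krt20 r = 0.84, Krt7 and Krt20 r = 0.78, and Krt7 and Krt8 r = 0.31. Over the 9 squamous clusters alone Krt19 and Krt20 had r = 0.96, Krt7 and Krt20 r = 0.91, Krt8 and Krt18 r = 0.32 and Krt7 and Krt8 r = 0.06, while Krt18 had r = 0.70 with Krt7, 0.57 with Krt19 and 0.50 with Krt20. Clusters share their libraries and their free RNA, so these values carry no p.

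The genes most like each member over the 24 clusters differed by member. For Krt8 they were Lgals4 (r = 0.99), Muc13, Tspan1, Cdh17 and Myo1a, and for Krt18 Grtp1 (r = 0.98), Hoxb13, Tstd1, Smpd3 and Oit1. For Krt19 they were Elf3 (r = 0.96), Cldn7, Gprc5a, Cldn3 and Prss32, and for Krt20 Sdcbp2 (r = 0.87), Gprc5a, Lmo7, Cldn7 and Ifit1bl1. For Krt7 they were Shroom3 (r = 0.91), Wfdc2, Foxa1, Gsto1 and Galnt3. Over the squamous clusters, Krt8 was most like Car1 (r = 0.94), Muc3, Pigr, Dmbt1 and Lgals4, several of which are genes of the colon lining. Krt7 was most like Smim6 (r = 0.99), Anxa3, Foxa1, 2200002D01Rik and Shroom3, Krt19 like Gprc5a (r = 0.98), Cda, Cldn3, Plac8 and Oit1, and Krt20 like Cda (r = 0.98), Dynap, Adam28, Cib1 and Ifi204. Krt18 was most like Gapdh (r = 0.94), Kdelr2, Tinagl1, Ier3ip1 and Psmb10 there, over levels that reached only 72.2 CPM in any squamous cluster and library.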

How the data were processed

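Single-cell RNA was counted in 3 libraries, day 0, day 7 and day 42, each a pool of 5 mice and each its own group. Per the submitters' processing notes, Cell Ranger 3.0.2 and the mouse genome build mm10 were used. The authors deposited whole UMI counts per gene and cell for the 3 libraries together, with a table of cells that gives the day, cluster and annotation. The ratio the authors deposited for each cell, a size factor, was checked and not used for the values reported. Filters on cells and the methods of clustering and annotation are not given in the sources used here. The authors' annotations were used as deposited. The values of 1 gene of the simple epithelium list are not reported here, though it stays in that list's counts.

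Counts were summed per group of cells and day with pandas 2.3.3 and scipy 1.17.1, and scaled to CPM. A log2 ratio had 10 CPM added to both values, so it understates differences of low genes. Ratios were taken over every gene with at least 10 CPM in either library. Clusters needed 50 cells. Shares were also computed with every cell thinned to 1000 UMIs, which left out 34, 468 and 91 squamous cells and 49, 33 and 144 columnar cells. Intervals were exact Poisson for CPM and exact Clopper-Pearson for shares, at 95%. The step that calls genes was tested on simulated data. Doublet scores came from Scrublet in scanpy 1.11.5, run per library.

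The members and gene lists were chosen with earlier results of these data known. Genes named were the 5 members, their partner keratins, the genes of the 3 lists and the 5 genes with the highest Pearson r with each member, among genes with at least 50 CPM in a cluster. Alternatives changed the filter on cells, the doublets, the normalization, the weight of clusters, the added CPM and the limits for a carrying cluster. Leaving out cluster 12, alone and with thinned cells, leaving out barcodes shared between libraries, leaving cluster 5 out of the simple epithelium list and leaving colon marker cells out of the clusters by day were chosen after seeing the data.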

Additional observations from a re-analysis of the deposited data

Results flagged for a closer look

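Krt8 differed in opposite directions in the epithelia at day 7 against day 0, with a log2 ratio of -1.14 in squamous cells and 0.31 in columnar cells. Krt20 did so too, with -0.83 in squamous cells and 2.35 in columnar cells. Krt18, with 0.67 and -0.19, and Krt19, with -0.84 and 0.60, also had opposite signs, but none of these ratios was past 1. The squamous Krt8 ratio was 0.40 with the mean of CPM per cell and 0.29 with thinned cells, and the columnar one lay between -0.05 and 0.54 over the settings tried. The differences of Krt8 and Krt20 rest on 1 library per day and were not tested. The squamous Krt8 level was below that of non-epithelial cells on both days.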

How the results depend on the processing

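At day 7 the count of members lower in squamous cells, 1 in the main values, was 0 with median-of-ratios size factors, the mean of CPM per cell, thinned cells, thinned cells without cluster 12, and without the 10 highest cells. It was 2 with 1 CPM added and with equal weight to clusters, and the count of members higher was 1 without cluster 5. Krt8 then turned to 0.40 with the mean of CPM per cell and 0.29 with thinned cells. At day 42 the members higher in squamous cells numbered 0 with equal weight to clusters, where Krt19 was -0.19, and 1 without cluster 5, instead of 3. The members lower numbered 1, Krt8, without the highest doublet scores, with totals that left out mitochondrial and ribosomal protein genes, with 1 CPM added and without cluster 5. In columnar cells at day 7 Krt7 joined Krt20, making 2, without the highest doublet scores, with median-of-ratios size factors, with 1 CPM added and with equal weight to clusters. Squamous clusters carrying Krt8 numbered 0 without cells holding colon markers, 1 among clusters of at least 100 cells and 1 without cluster 12. With the limit at 50 CPM, clusters carrying Krt18 numbered 3 and those carrying Krt20 numbered 8. Without cells holding colon markers, Krt19 was carried in 4 and Krt20 in 2, partly because cluster 5 then had 37 cells at day 0, under the minimum. Without cluster 12, Krt19 was carried in 5. The cause of the other shifts was not tested. No other count of members called or of carrying clusters moved by over 1.5 times. No paired analysis was possible because each day has 1 library. Counting error covers only depth, and differences between mice cannot be told apart from differences between days.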

Other observations

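Of the cells annotated Unknown, with a median mitochondrial share of 84.7% to 89.3% by library, cluster 14 held 343 CPM of Krt7 and 105.5 CPM of Krt20 at day 42. Cluster 6 held 338, 77.2 and 182 CPM of Krt8 over the 3 libraries in day order. These cells entered no comparison between days.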
